A study of Mus musculus with 16 samples.

Results

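The genes for the proteins of the cytosolic ribosome were examined in RNA-seq counts from 16 primary explants of mouse epicardium, the outer cell layer of the heart. Members were the genes whose symbol is Rpl or Rps followed by a number, with an optional a, l, x or y ending, plus Rplp0, Rplp1, Rplp2, Rpsa and Fau. Pseudogenes with the ending -ps, the Rps6k kinases and Rps27l were left out. This rule found 78 members among the 15805 genes of the table, 46 of the large and 32 of the small ribosomal subunit, and used no measured value. All 78 passed the filter on low counts that left 15675 genes for the tests. The label held for all but Rps4l, which the GENCODE M21 annotation lists as a transcribed processed pseudogene with 1 exon and no coding sequence. Rps3a1, a small-subunit protein gene, falls outside the rule by its symbol.

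Per the labels, 8 explants were treated with blebbistatin (blebbistatin 1 to 8) and 8 were controls (control 1 to 8). Blebbistatin inhibits the motor activity of myosin II, which pulls on actin filaments, and it was added here to inhibit the nonmuscle form. All 16 were primary explants of C57BL6 mice on a collagen gel, annotated as epicardial cells. The sources used here do not give the age of the mice, the time of treatment, whether controls received solvent or whether explants came from separate animals. The p-values therefore measure the spread between explants. The dose reads 20 in the labels, with its unit written in 2 ways, so the concentration is not settled.

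A cytosolic ribosome is built in the nucleolus from ribosomal RNA and about equal amounts of each ribosomal protein, with the help of many assembly factors that leave before translation starts. Most ribosomal protein mRNAs begin with a C followed by a run of pyrimidines, the 5′ terminal oligopyrimidine (TOP) motif, through which growth signals acting via mTORC1 and the RNA-binding protein Larp1 control their translation. Mammalian genomes also carry many processed copies of these genes, so that short reads from a ribosomal protein mRNA can match several places.

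The start sites of the members with the lowest p-values are shown because the TOP motif lies there. Each window is 30 bases of the sense strand of build GRCm38.p6 from RefSeq, with 10 bases before the annotated start, and capitals mark a C followed by at least 4 C or T that begins within 5 bases of the start.
Rps24, chr14:24490668-24490697, plus strand: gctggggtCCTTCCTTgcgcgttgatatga
Rps6, chr4:86857348-86857377, minus strand: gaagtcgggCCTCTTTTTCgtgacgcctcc
Rps23, chr13:90923112-90923141, plus strand: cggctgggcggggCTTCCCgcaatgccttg
Fau, chr19:6057937-6057966, plus strand: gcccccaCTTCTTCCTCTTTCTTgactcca
Rplp0, chr5:115559457-115559486, plus strand: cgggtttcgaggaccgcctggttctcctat
Rpl10, chrX:74270806-74270835, plus strand: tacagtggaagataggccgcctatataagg
The first 4 windows hold such a run and the last 2 do not. Of 57 members with a promoter entry, 28 (49.1%) held a run at 1 or more of their annotated starts, against 21.2% of 27025 genes with an entry. Rps24 has a further annotated start without a run. Rpl34, also among the members of lowest p, held a run at both of its annotated starts. A match says only that these letters stand in the window, and annotated starts may lie some bases from the start used in these cells.

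Total counts per library were 20176386 to 89620195 with blebbistatin and 27065611 to 60321622 in controls, and the labels name no batch. All 12 epicardial markers (such as Wt1, Tcf21 and Upk3b) were in the table and none was at 0 in any library. Their summed level was 1570 to 3783 CPM with blebbistatin and 2410 to 4430 CPM in controls, and 0 of 12 passed edgeR's test. For summed markers and the red cell marker, here and below, CPM are counts scaled to a common library total only. Other CPM values were scaled further by edgeR's TMM method. Of these 12 epicardial markers, 11 had a fitted log2 fold change (blebbistatin minus control) below 0 (45.9% of all genes), with a median of −0.33. At an unadjusted p under 0.05 by edgeR, 5 were lower (5.98% of all genes). By DESeq2, 3 of the 12 passed as lower (Tbx18, Krt18 and Krt19), against 1.42% of all genes. Markers of other cells were present too, with 6 of 9 cardiomyocyte markers in the table, summing to 653 to 1211 CPM with the drug and 412 to 1024 CPM in controls. Summed macrophage markers, 12 of 12 in the table, ranged from 252 to 3602 CPM with the drug and from 304 to 4477 CPM in controls. Endothelial markers, 4 of 7 in the table, summed to 30.9 to 124 and 52.9 to 153 CPM, fibroblast markers, 8 of 8, to 4023 to 12143 and 7732 to 11701 CPM, and the red cell marker in the table, 1 of 6, stood at 6.60 CPM or less. By edgeR 1 cardiomyocyte marker, Ttn, was called higher with blebbistatin (48.2 ± 21.9 against 15.5 ± 12.1 CPM, adjusted p 0.0464), and edgeR called no marker of the other lists. DESeq2 called 3 cardiomyocyte markers higher (Ttn, Tnnt2 and Ryr2), against 1.15% of all genes. Limma voom called Ttn alone of that list, and both tests called 1 fibroblast marker higher, Pdgfra. In bulk libraries, a change in the number of cells of a type and a change in RNA per cell cannot be told apart, and the part of these markers in the results below was not tested.

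The 78 genes took a small share of each library, and it was about the same in both groups. With blebbistatin the share was lowest in blebbistatin 6 (0.722% of all counts), had a median of 0.848% and was highest in blebbistatin 7 (1.14%). In controls it was lowest in control 4 (0.816%), had a median of 0.886% and was highest in control 2 (1.20%). The groups overlapped over most of their range, and by this share blebbistatin 7 and control 2 stood apart above all other libraries. In summed TMM-scaled CPM, blebbistatin 7 (10170) did not stand apart and lay just below blebbistatin 2 (10213). By that sum control 2 (11511) was followed by control 1 (10931). The mean shares were 0.868 ± 0.128% and 0.921 ± 0.126% (SD, n = 8 each). The difference of −0.0536 percentage points was thus less than the spread between explants. Without blebbistatin 7 and control 2 the difference was −0.0532 percentage points. Leaving out a single explant gave between −0.0931 (without blebbistatin 7) and −0.0137 (without control 2).

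The mitochondrial genome's own genes took 21.4 ± 3.21% of counts with blebbistatin and 16.4 ± 1.70% in controls (SD, n = 8 each). With those genes left out of the total, the share of ribosomal protein genes was 1.10 ± 0.15% and 1.10 ± 0.14%, a difference of 0.00144 percentage points. The plot of these shares shows blebbistatin 7 and control 2 at the top of their groups on both scales.

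**Figure D1:**
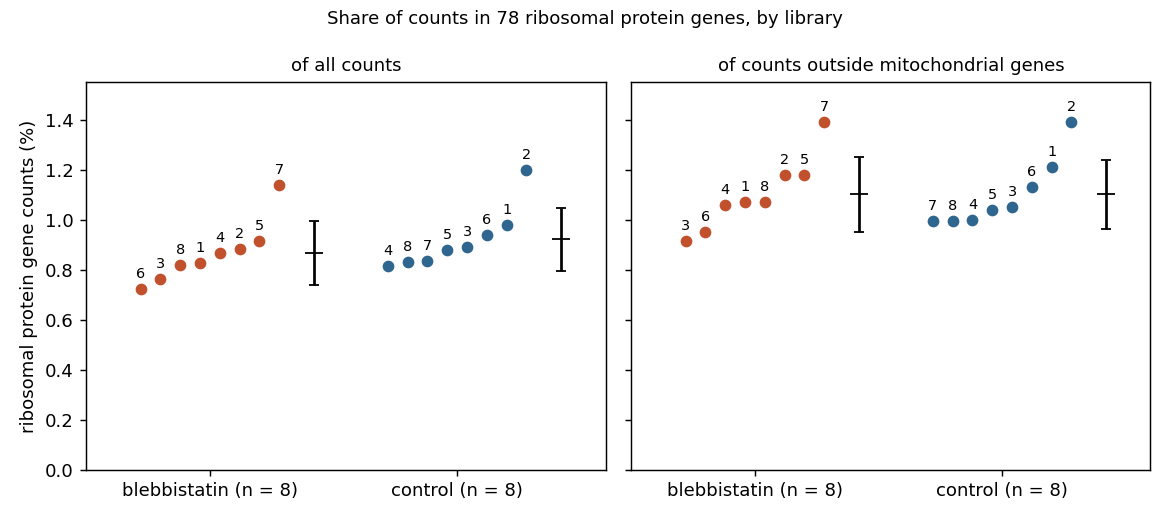
Share of counts in the 78 ribosomal protein genes (percent, vertical axis) in each library (points, numbered as in the text), of all counts on the left and of counts outside mitochondrial genes on the right, with mean and SD beside each group. The groups overlap, and blebbistatin 7 (1.14% of all counts) and control 2 (1.20%) lie above the rest.

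No ribosomal protein gene passed the test between blebbistatin and control, and most fitted differences were small and negative. By edgeR's quasi-likelihood test, with p-values adjusted over all genes, 0 of 78 were called at 0.05, where 0.606% of all genes were called (0.255% higher and 0.351% lower). At an unadjusted p under 0.05, 8 of 78 were lower and 0 were higher, against 5.98% and 6.21% of all genes. The limma voom test called 0 members lower and 0 higher (0.504% and 0.217% of all genes), with 7 lower and 0 higher at an unadjusted p under 0.05 (6.82% and 5.05% of all genes). DESeq2 called 1 member lower, Rps24, and 0 higher (1.42% and 1.15% of all genes), with 9 lower and 0 higher at an unadjusted p under 0.05 (6.76% and 6.80% of all genes).

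The median log2 fold change of the members, blebbistatin minus control, was −0.11, against 0.04 over all genes tested. Fitted changes ran from −0.46 (Rps19) to 0.34 (Rpl37a). A total of 60 of 78 (76.9%) were below 0, where 45.9% of all genes were. In no member were the groups free of overlap, as they were in 0.242% of all genes. In 15 of 78 members (19.2%), at least 7 of the 8 blebbistatin libraries lay below the control median, against 12.5% of all genes, and in 0 members did at least 7 lie above it, against 12.2%.

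The small and large subunits did not stand apart from each other. Small-subunit members had a median of −0.10, with 27 of 32 below 0 and 5 lower at an unadjusted p under 0.05, and large-subunit members a median of −0.12, with 33 of 46 below 0 and 3 lower. The ribosome inside mitochondria has its own protein set, encoded in the nucleus, and its 75 genes had a median of 0.00, with 37 below 0 and 0 called by edgeR. The difference between those medians was not tested.

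How many members fell under an unadjusted p of 0.05 turned on single explants. The 8, all lower, became 21 without blebbistatin 1, 5 without blebbistatin 3, 4 without blebbistatin 4 or blebbistatin 5, and 5 without blebbistatin 6. They became 3 without control 1 and 5 without control 2. The fit without blebbistatin 6 also had 1 member higher at that p. Without both blebbistatin 7 and control 2, 5 members were lower, and the median of the members was −0.11. That median was −0.06 without control 1, which is still below the 0.03 of all genes in the same fit. The share of all genes under that p in these fits is not given here, so the counts describe the members alone. Genes called at an adjusted p under 0.05 over the whole table varied too. They were 95 with all explants, 87 without blebbistatin 1, 76 without blebbistatin 3, 105 without blebbistatin 4 and 180 without blebbistatin 5.

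**Figure D2:**
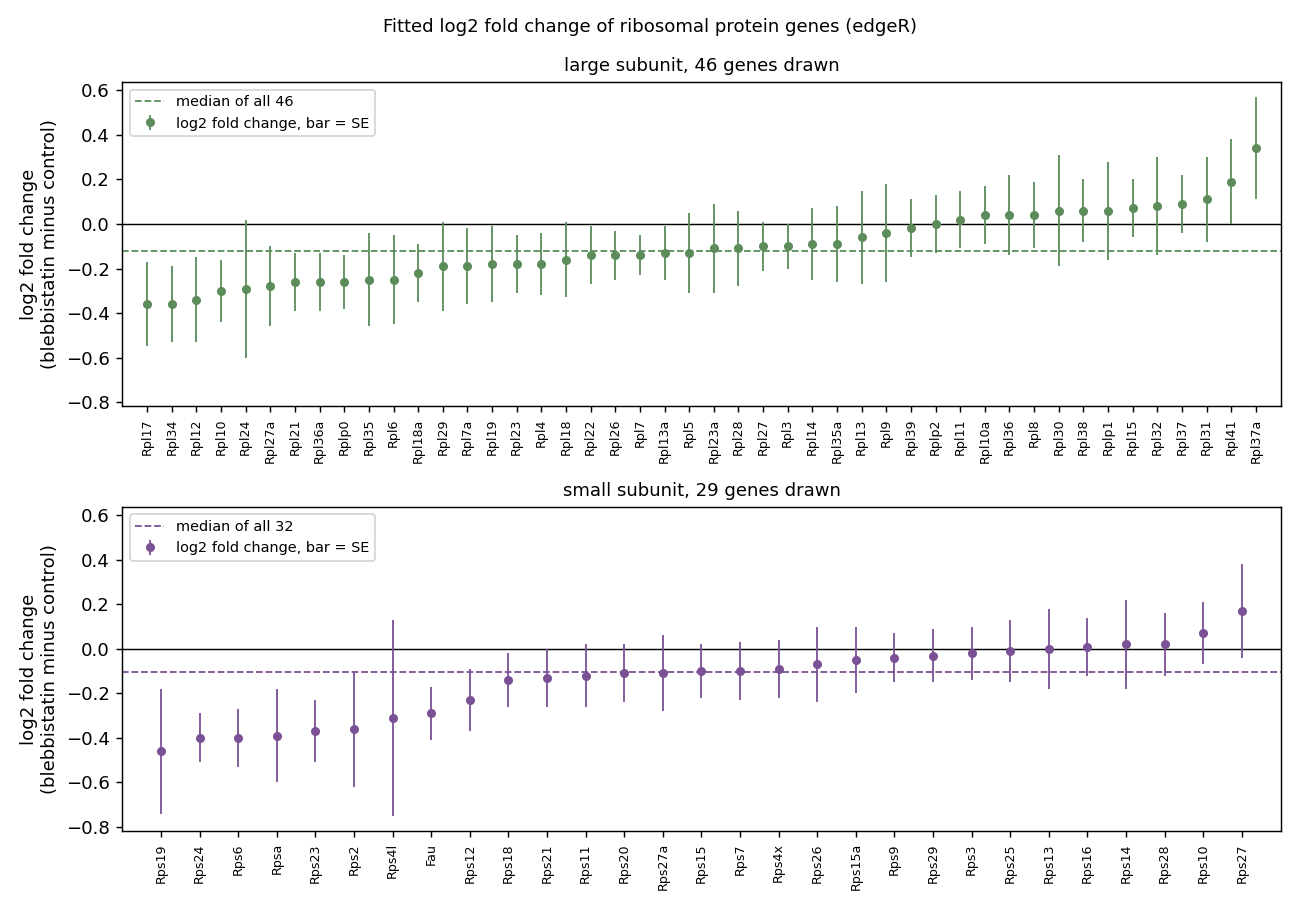
Log2 fold change (blebbistatin minus control, vertical axis) of ribosomal protein genes by edgeR, with bars of 1 SE, for 46 large-subunit genes (top) and 29 small-subunit genes (bottom); dashed lines are the medians of all 46 and all 32. Most points lie a little below 0, between −0.46 for Rps19 and 0.34 for Rpl37a, and both medians are close to −0.1.

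Among small-subunit members, Rps24 (chr14:24487125-24496959), whose loss of function causes Diamond-Blackfan anaemia, had the lowest p. Its level was 134, 167 and 205 CPM (lowest, median, highest) with blebbistatin and 177, 213 and 283 CPM in controls. All 8 blebbistatin libraries lay below the control median, although the groups overlapped between 177 and 205 CPM. The log2 fold change was −0.40 (SE 0.11), with an edgeR adjusted p of 0.102, and DESeq2's adjusted p was 0.0322. Over all alternatives, DESeq2 included, the fold change ran from −0.46 to −0.34 and the adjusted p from 0.0322 to 0.246.

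Rps6 (chr4:86854660-86857412) is the ribosomal protein that the S6 kinases phosphorylate downstream of mTORC1. It stood at 28.1, 34.9 and 55.2 CPM with the drug and at 43.6, 49.5 and 53.6 CPM in controls. Blebbistatin 1 held the highest value of all, while the other 7 blebbistatin libraries, at 40.7 CPM or less, lay below every control. The log2 fold change was −0.40 (SE 0.13, edgeR adjusted p 0.172). Without blebbistatin 1 it was −0.52 and passed, with an edgeR adjusted p of 0.0372.

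Rps23 (chr13:90922958-90924950) encodes a protein of the decoding centre. It stood at 64.2, 80.5 and 106 CPM with the drug and at 81.1, 98.8 and 140 CPM in controls, for a fitted log2 fold change of −0.37 (SE 0.14, edgeR adjusted p 0.283). In this gene 6 of 8 blebbistatin libraries lay below the control median. Fau (chr19:6057844-6059524) encodes a small-subunit protein fused to a ubiquitin-like domain, and all 8 blebbistatin libraries were below its control median. Its level was 67.9, 93.8 and 101 CPM with the drug and 83.7, 105 and 145 CPM in controls, with a log2 fold change of −0.29 (SE 0.12, edgeR adjusted p 0.318).

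Other small-subunit members of known roles did not pass either. Rps19 (chr7:24884371-24889806), the gene most often mutated in Diamond-Blackfan anaemia, had the lowest fitted change of all members, −0.46 (SE 0.28), with an edgeR adjusted p of 0.553. Leaving out single explants gave −0.67 (without blebbistatin 1) to −0.17 (without control 1), and without control 1 the lowest member was Rps6 instead. It stood at 29.9, 39.2 and 85.8 CPM with the drug and at 30.7, 45.1 and 140 CPM in controls, with the highest value in library 1 of each group. Rpsa, also known as the laminin receptor, stood at 37.9, 49.1 and 94.9 CPM and at 48.1, 62.0 and 128 CPM, again highest in blebbistatin 1 and control 1, and its change was −0.39 (SE 0.21, edgeR adjusted p 0.48). This became −0.56 without blebbistatin 1 and −0.21 without control 1. Rps3, at the entry of the mRNA channel, was close to level, at 434, 542 and 729 CPM with the drug and 466, 561 and 734 CPM in controls (log2 fold change −0.02, SE 0.12, edgeR adjusted p 0.97).

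Rps14, whose loss is part of the 5q- syndrome, stood at 56.4, 96.5 and 151 CPM with the drug and at 61.2, 91.4 and 152 CPM in controls (log2 fold change 0.02, SE 0.20, edgeR adjusted p 0.981). Rps27a, a ribosomal protein made as a fusion with ubiquitin, stood at 74.2, 88.2 and 175 CPM and at 73.6, 110 and 151 CPM (−0.11, SE 0.17, edgeR adjusted p 0.836). The X-linked Rps4x stood at 104, 172 and 185 CPM and at 143, 154 and 213 CPM (−0.09, SE 0.13, edgeR adjusted p 0.825). In these 3 genes the groups overlapped, and the fitted changes were within 1 SE of 0. Its relative Rps4l was the least abundant member, at 0.748, 2.41 and 9.68 CPM with the drug and 2.38, 3.68 and 6.44 CPM in controls, with the largest standard error of all members (−0.31, SE 0.44, edgeR adjusted p 0.816), and its change was −0.81 without blebbistatin 1.

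**Figure D3:**
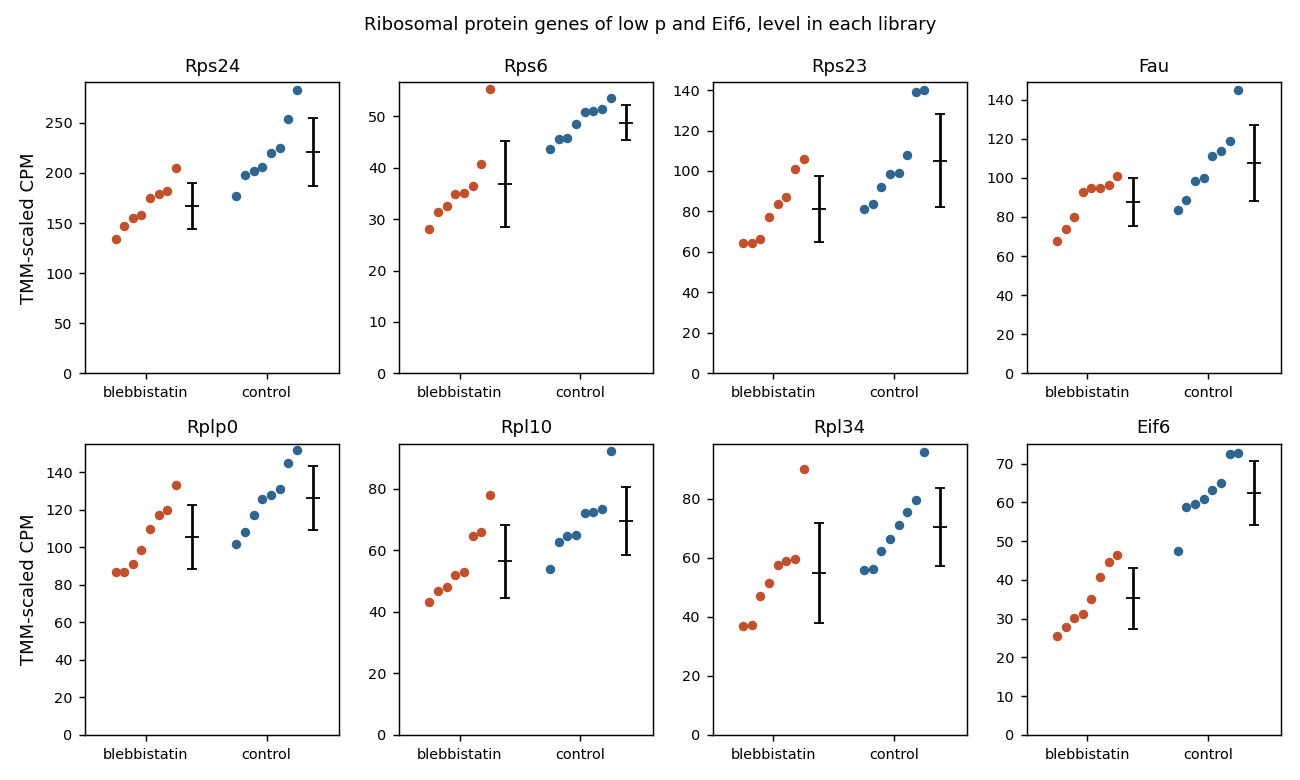
Level (TMM-scaled CPM, vertical axis from 0) in each library (points) of 7 ribosomal protein genes with an unadjusted p under 0.05 and of the assembly factor gene Eif6, with mean and SD beside each group of 8. The groups overlap in all 7, through a single blebbistatin library at 55.2 CPM in Rps6, and do not overlap in Eif6.

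Among large-subunit members, Rplp0 (chr5:115559467-115563727), the base of the stalk that recruits elongation factors, stood at 87.0, 104 and 133 CPM with the drug and 102, 127 and 152 CPM in controls. Its log2 fold change was −0.26 (SE 0.12, edgeR adjusted p 0.374), with 7 of 8 blebbistatin libraries below the control median. The other stalk proteins did not share that value: Rplp1 had a fitted change of 0.06 (SE 0.22, edgeR adjusted p 0.942) and Rplp2 one of 0.00 (SE 0.13, edgeR adjusted p 0.996). Rplp1 stood at 22.1, 33.3 and 71.9 CPM with the drug and at 23.6, 32.9 and 60.2 CPM in controls, and Rplp2 at 61.6, 78.2 and 98.4 CPM and at 65.9, 73.5 and 111 CPM. The sign of both changed with single explants and, for Rplp2, also with limma voom and with other scalings.

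Rpl10 (chrX:74270812-74273135), which joins the large subunit as a last step of its maturation, stood at 43.0, 52.4 and 77.8 CPM with the drug and 53.9, 68.4 and 92.1 CPM in controls (log2 fold change −0.30, SE 0.14, edgeR adjusted p 0.378). Rpl34 (chr3:130726831-130730398) stood at 36.7, 54.5 and 89.9 CPM and at 55.9, 68.8 and 95.6 CPM (−0.36, SE 0.17, edgeR adjusted p 0.40). Both had 7 of 8 blebbistatin libraries below the control median and their highest value in library 1 of each group. The X-linked Rpl36a stood at 32.5, 39.5 and 53.5 CPM and at 36.4, 46.9 and 67.7 CPM, likewise with 7 of 8 below (−0.26, SE 0.13, edgeR adjusted p 0.446).

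Rpl5 and Rpl11, which with 5S ribosomal RNA bind Mdm2 when ribosome assembly is disturbed, had overlapping groups. Rpl5 stood at 231, 288 and 453 CPM with the drug and 194, 335 and 553 CPM in controls (log2 fold change −0.13, SE 0.18, edgeR adjusted p 0.816), and Rpl11 at 19.4, 23.6 and 31.5 CPM and at 20.7, 23.8 and 28.5 CPM (0.02, SE 0.13, edgeR adjusted p 0.961). The sign of both changed when single explants were left out. Rpl3, close to the peptidyl transferase centre, was steady at 199, 230 and 271 CPM and at 208, 257 and 310 CPM (−0.10, SE 0.10, edgeR adjusted p 0.728). Its within-group SD of 0.17 (log2 CPM) was among the 3 smallest of members at or above 10 CPM, with Rpl7 at 0.14 and Rpl27 at 0.18.

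Rpl22, which has the paralog Rpl22l1, stood at 68.9, 99.4 and 110 CPM with the drug and 83.2, 98.9 and 153 CPM in controls (log2 fold change −0.14, SE 0.13, edgeR adjusted p 0.737). Rpl13a, which also acts outside the ribosome in translational silencing, stood at 133, 177 and 202 CPM and at 148, 181 and 233 CPM (−0.13, SE 0.12, edgeR adjusted p 0.727). Rpl39, a protein of the exit tunnel, stood at 79.3, 98.7 and 134 CPM and at 74.2, 98.9 and 140 CPM (−0.02, SE 0.13, edgeR adjusted p 0.975). The medians of the groups differed by less than the spread within them in all 3.

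The 4 members with the lowest p among positive changes encode short proteins, and none had an unadjusted p under 0.05. Rpl37a (chr1:72711290-72713813) stood at 43.4, 95.1 and 153 CPM with the drug and 57.7, 72.1 and 105 CPM in controls (log2 fold change 0.34, SE 0.23, edgeR adjusted p 0.602). Rpl41, the shortest of the ribosomal proteins, stood at 183, 388 and 423 CPM and at 220, 259 and 393 CPM (0.19, SE 0.19, edgeR adjusted p 0.736). Blebbistatin 6 was the lowest of all 16 libraries in both genes. Rps27 of the small subunit had a change of 0.17 (SE 0.21, edgeR adjusted p 0.788) and Rpl37 of 0.09 (SE 0.13, edgeR adjusted p 0.817).

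The members differed far more from each other than between groups, although the ribosome holds their proteins in about equal amounts. By mean CPM over 16 libraries, Rpl4 (574), Rps3 (564) and Rpl23 (405) were the most abundant and Rps4l (3.59), Rpl23a (5.94) and Rpl24 (11.0) the least. Per kilobase of the reference transcript, Rpl41 was highest at 713 CPM per kb, and Rpl31 (655), Rps28 (512) and Rps29 (471) were also high. At the low end stood Rps4l at 4.55, Rpl23a at 10.6 and Rpl24 at 16.3 CPM per kb.

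The sequence copies of the members were counted because reads that match several genes can be dropped or split in counting, and the sources used here do not give the authors' setting. For each of the 77 members with a coding sequence, every stretch of 50 bases in it was looked up in all other annotated transcripts of GENCODE M21. For 30 members no stretch was unique, for 31 up to 25% were, for 6 above 25 to 50%, and for 10 above 50%, with a median of 6.79%. All but 1 of them shared a stretch with at least 1 other annotated gene, with a median of 9 genes and a highest of 120, in Rpl7a. No member shared a stretch with another member. Most stretches were unique in Rps3 (91.9%), Rpl8 (91.3%) and Rpl4 (79.7%).

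Members with few unique stretches had lower levels at the median. The median was 101 CPM per kb for members with no unique stretch, 87.5 for those up to 25%, 138 for those above 25 to 50% and 239 for those above 50%. Each class covered a wide range, and Rpl41, with no unique stretch, was the highest of all. Across the 77 members, which share libraries and scaling, Spearman's rho of level per kb was −0.44 with the number of genes sharing a stretch and 0.19 with the unique percentage. The log2 fold change had a rho of 0.06 with the unique percentage and 0.41 with the level per kb. The 10 members above 50% unique by this measure had a median log2 fold change of −0.11, the same as all members. At an unadjusted p under 0.05 by edgeR, 0 of these 10 were lower and 0 higher (5.98% and 6.21% of all genes). Of all 78 members, 8 were lower. With 10 genes this count says little either way. The members' untranslated ends and copies outside annotated transcripts were not searched, so how well their reads can be placed is not shown.

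**Figure D4:**
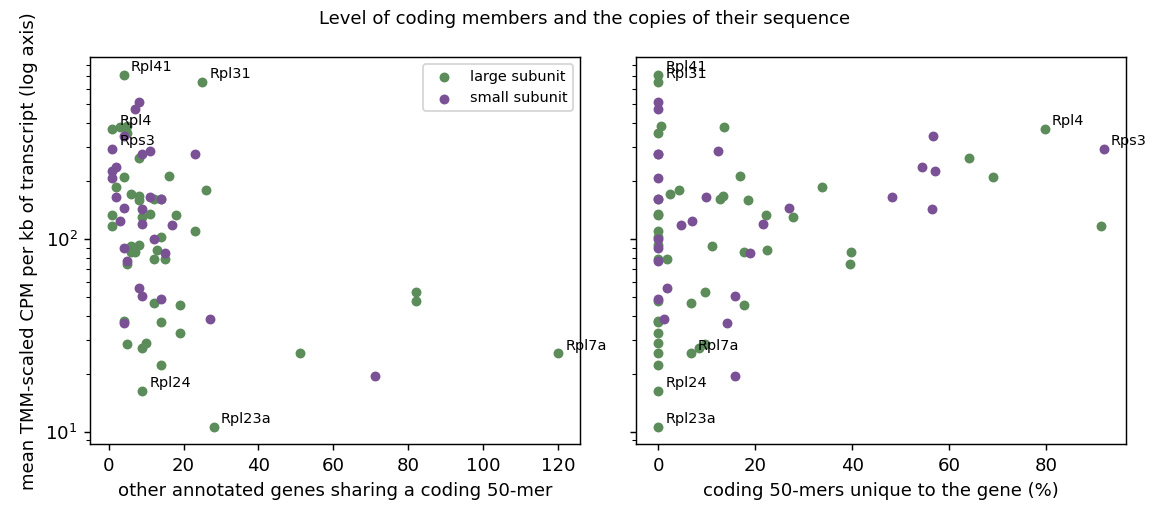
Mean level of 74 ribosomal protein genes with a coding sequence (TMM-scaled CPM per kb, log axis) against the number of other annotated genes that share a coding stretch of 50 bases (left) and the percentage of such stretches unique to the gene (right), coloured by subunit. Rpl7a, with 120 sharing genes, lies low, while Rpl41, with no unique stretch, is the highest at 713 CPM per kb.

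Of the annotated pseudogenes of ribosomal proteins, 119 were in the table under names with -ps, all of which passed the filter on low counts. They held 0.155 to 0.293% of all counts, or 19.2 to 25.4% of the members' counts, depending on the library. The highest were Rpl10-ps1 (208 CPM) and Rpl10-ps6 (154 CPM), both above their parent gene Rpl10 (62.9 CPM), and Rpl10a-ps1 (130 CPM). By edgeR 0 of 119 were called, and 6 were lower and 0 higher at an unadjusted p under 0.05 (5.98% and 6.21% of all genes). Their median log2 fold change was −0.21, with 87 below 0 (45.9% of all genes). Reads of a pseudogene and of its parent gene may have been counted for each other, so values of single members with many copies are uncertain.

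Introns of ribosomal protein genes often hold genes for small nucleolar RNAs, the guides of ribosomal RNA modification. Of the 77 members, 29 held at least 1 annotated snoRNA gene and had a median level of 85.8 CPM per kb, and the 48 without had a median of 132 CPM per kb.

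In several explants most members lay on the same side of the mean of their group (log2 CPM). Above it were 70 of 78 in blebbistatin 2 (54.4% of all genes), 70 in control 1 (51.4%) and 69 in control 2 (51.3%). In blebbistatin 6 only 3 of 78 were above it (52.8% of all genes), and in blebbistatin 3 and control 4 there were 14 (52.5% and 51.9%). The members that were highest differed between libraries. Control 1 was the highest control for 48 of 78 members (17.3% of all genes) and control 2 for 27 (11.5%). In the treated group, blebbistatin 1 was highest for 34 (20.4% of all genes), blebbistatin 2 for 19 (9.22%) and blebbistatin 7 for 18 (8.91%), and blebbistatin 6 was lowest for 26 (11.4%).

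Different members made up these counts. Rps19 stood at 85.8 CPM in blebbistatin 1 and 140 CPM in control 1, and at 29.9 CPM in blebbistatin 7 and 42.7 CPM in control 2. Rpl24 stood at 22.0 and 23.7 CPM in the first pair of libraries and at 6.33 and 9.77 CPM in the second, and Rps2 at 38.5 and 37.8 CPM and at 11.8 and 19.8 CPM. These 3 genes were thus high in library 1 of both groups. Rps14 was the reverse, at 56.4 and 61.2 CPM in blebbistatin 1 and control 1 and at 133 and 152 CPM in blebbistatin 7 and control 2. Rpl30 stood at 76.8 and 67.2 CPM against 188 and 217 CPM, and Rpl5 at 231 and 194 CPM against 453 and 553 CPM. These 6 genes were chosen after their values were seen.

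Over all 78 members, deviations from the group mean (log2 CPM) were compared between libraries, as a description in which the points share 2 libraries. Pearson's r was 0.71 between blebbistatin 1 and control 1 and 0.81 between blebbistatin 7 and control 2. It was −0.86 between blebbistatin 1 and blebbistatin 7, −0.71 between control 1 and control 2, −0.73 between blebbistatin 1 and control 2, and −0.66 between blebbistatin 7 and control 1. Deviations within a group sum to 0, which by itself pulls pairs of the same group below 0. Blebbistatin 4 (r = 0.70) and blebbistatin 2 (r = 0.63) also went with control 2, so the pattern ran through libraries of both groups.

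In some libraries the deviations went with the level of the gene. Spearman's rho between a member's deviation and its mean level per kb, over 77 members, was −0.53 in blebbistatin 1 and −0.40 in control 1, and 0.51 in blebbistatin 7 and 0.57 in control 2. Over the other libraries it ran from −0.35 to 0.50, so control 3 (0.50) and blebbistatin 4 (0.46) were close to the latter pair, while control 4 (0.10) and blebbistatin 8 (−0.18) were nearer 0. The number of genes sharing a stretch of 50 bases, itself related to the level, had a rho with the deviation of 0.32 in blebbistatin 1 and 0.22 in control 1, and of −0.45 in blebbistatin 7 and −0.43 in control 2. The mean level comes from the same libraries, and which of these measures goes with the deviations was not separated.

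A few other measures of these libraries, picked from several, are given here. Blebbistatin 1 and control 1 each had the highest share of mt-Rnr1, a mitochondrial ribosomal RNA (8.36% and 7.60% of counts), and of the predicted gene Gm42418 (4.88% and 7.43%) in their group. They also had the lowest summed markers of endothelium (30.9 and 52.9 CPM) and of cardiomyocytes (653 and 412 CPM) in their group. Blebbistatin 7 and control 2 had 17.7% and 13.8% of counts in mitochondrial genes, the latter the lowest of all libraries. Other libraries had values close to these. Blebbistatin 3 was below blebbistatin 7 at 16.8%, and its r with blebbistatin 7 was −0.57. Blebbistatin 6 and blebbistatin 8 had 8.07% and 7.99% of counts in mt-Rnr1, and blebbistatin 8 had 34.7 CPM of endothelial markers. Their r with blebbistatin 1 was 0.13 and −0.02. The part of these measures in the pattern was not tested.

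**Figure D5:**
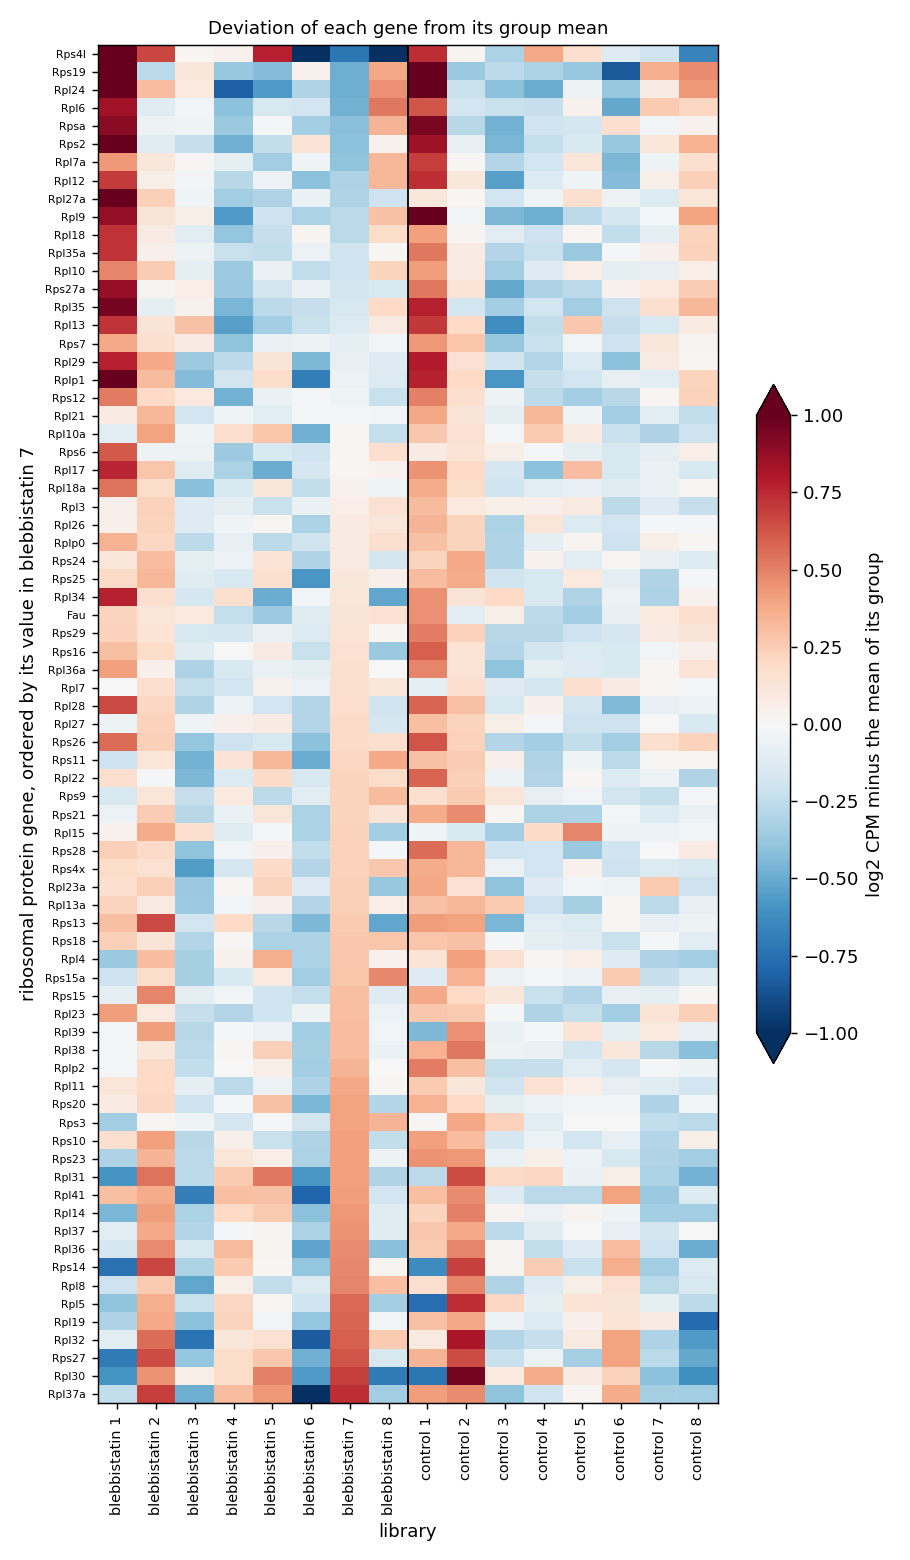
Deviation of 75 ribosomal protein genes (lines, ordered by blebbistatin 7) from its group mean in log2 CPM (colour, saturated beyond 1 either way) in the 16 libraries (columns). Genes at the top, such as Rps19 and Rpl24, are high in blebbistatin 1 and control 1, and genes at the bottom, such as Rpl30 and Rps14, are high in blebbistatin 7 and control 2.

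Of the genes around the ribosome, the factors that build it included the only gene of these lists that passed edgeR's test. Of 69 ribosome biogenesis genes in the table, 1 was called lower by edgeR and 0 higher (0.351% and 0.255% of all genes). At an unadjusted p under 0.05, 9 were lower (5.98% of all genes). The median log2 fold change was −0.15, with 56 below 0 (45.9% of all genes). The called gene was Eif6 (chr2:155819832-155826925), which binds the new large subunit and keeps it from joining the small subunit until it is mature. It stood at 25.6, 33.2 and 46.4 CPM with the drug and 47.4, 62.0 and 72.8 CPM in controls, so that all 8 treated explants lay below all 8 controls. The means were 35.2 ± 7.86 and 62.5 ± 8.17 CPM (SD, n = 8 each), and the log2 fold change was −0.83 (SE 0.14, edgeR adjusted p 0.00785). It passed under every alternative run, with a fold change from −0.90 to −0.77 and an adjusted p from 1.62e-05 to 0.0419.

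DESeq2 called 3 more biogenesis genes lower, so 4 in the list, against 1.42% of all genes. The 3 are named here after their values were seen. Gnl2, a nucleolar GTPase for large-subunit precursors, stood at 35.6 ± 4.98 and 49.7 ± 6.67 CPM (SD, n = 8 each), with a DESeq2 adjusted p of 0.0103 and an edgeR adjusted p of 0.0708. Pno1, a small-subunit assembly factor, stood at 8.83 ± 2.46 and 15.0 ± 4.49 CPM (DESeq2 adjusted p 0.0287, edgeR adjusted p 0.123). Rrp9, a protein of the U3 particle that processes ribosomal RNA, stood at 2.2 ± 1.1 and 6.7 ± 5.71 CPM (DESeq2 adjusted p 0.025, edgeR adjusted p 0.137). These 3 differences thus depended on the test, and limma voom called only Eif6 in this list.

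The nucleolar proteins Ncl and Fbl did not pass. Ncl stood at 496 ± 64.1 CPM with the drug and 526 ± 61.1 CPM in controls (log2 fold change −0.09, SE 0.10, edgeR adjusted p 0.787). Fbl, the methyltransferase of ribosomal RNA, stood at 19.3 ± 5.25 and 21.1 ± 6.74 CPM (−0.12, SE 0.22, edgeR adjusted p 0.86). Of 20 genes for RNA polymerase I and its factors, which transcribe ribosomal RNA, 0 were called, 0 had an unadjusted p under 0.05 in either direction, and the median was −0.07.

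Translation factors and other mRNAs with a TOP motif had values like those of the ribosomal proteins. Of 30 in the table, 0 were called by edgeR, and 5 were lower and 0 higher at an unadjusted p under 0.05 (5.98% and 6.21% of all genes). The median log2 fold change was −0.13, with 24 below 0 (45.9% of all genes). Eef1a1, which brings tRNA to the ribosome, stood at 752 ± 112 CPM with the drug and 865 ± 66.7 CPM in controls (SD, n = 8 each; log2 fold change −0.20, SE 0.10, edgeR adjusted p 0.446). Eef2, which moves the ribosome along the mRNA, stood at 1295 ± 282 and 1495 ± 194 CPM (−0.21, SE 0.13, edgeR adjusted p 0.569). Tpt1, a growth-related protein with a TOP mRNA, stood at 807 ± 134 and 973 ± 158 CPM (−0.27, SE 0.12, edgeR adjusted p 0.377).

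Rack1, a scaffold on the small subunit that the table lists under its older symbol Gnb2l1, stood at 260 ± 27.8 and 293 ± 36.4 CPM (log2 fold change −0.17, SE 0.10, edgeR adjusted p 0.501). Npm1, a nucleolar chaperone, stood at 1238 ± 205 and 1362 ± 287 CPM (−0.14, SE 0.14, edgeR adjusted p 0.736). Both differences were within the spread between explants.

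The regulators of ribosome synthesis held no called gene. Of 24, 1 was higher and 3 were lower at an unadjusted p under 0.05 (6.21% and 5.98% of all genes), and the median was −0.04. The 24 include Lars2, which is not such a regulator and took 2.98 to 6.90% of all counts. Its log2 fold change was −0.25 (SE 0.17, edgeR adjusted p 0.585). Eif4ebp1, a repressor of cap-dependent translation that mTORC1 switches off, stood at 19.0 ± 4.43 CPM with the drug and 27.3 ± 5.86 CPM in controls (log2 fold change −0.52, SE 0.17, edgeR adjusted p 0.184). Larp1, the reader of the TOP motif, stood at 176 ± 14.8 and 189 ± 22.2 CPM (−0.10, SE 0.09, edgeR adjusted p 0.715). Myc, which drives ribosome production, was level at 44.3 ± 9.38 and 44.6 ± 6.60 CPM (−0.01, SE 0.14, edgeR adjusted p 0.986), and the sign of its change turned with single explants and with upper quartile scaling. Of 9 S6 kinase genes 0 were called, with a median of −0.12, and Rps6kb1, the kinase of Rps6, stood at 46.9 ± 15.8 and 50.9 ± 10.7 CPM (−0.12, SE 0.19, edgeR adjusted p 0.845).

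Close relatives of members that the rule leaves out did not pass, and neither did Rps3a1, itself a small-subunit protein gene outside the rule. Rpl22l1 stood at 5.65 ± 1.81 CPM with the drug and 4.20 ± 2.15 CPM in controls (log2 fold change 0.43, SE 0.32, edgeR adjusted p 0.647). Rps27l, a relative of Rps27 that p53 activates, stood at 35.5 ± 13.0 and 44.2 ± 11.9 CPM (−0.31, SE 0.22, edgeR adjusted p 0.625). Rpl36al stood at 96.0 ± 21.7 and 98.7 ± 18.9 CPM (−0.04, SE 0.15, edgeR adjusted p 0.938). Rps3a1 stood at 23.4 ± 5.20 and 29.3 ± 9.02 CPM (−0.32, SE 0.18, edgeR adjusted p 0.506). The tissue-restricted Rpl3l, Rpl10l and Rpl39l, whose symbols the rule would take, are not among the 78 members and were not analysed here.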

How the data were processed

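Per the labels' protocols, RNA of the 16 explants was column purified, amplified with an Ovation kit and turned into Nextera XT libraries. The deposited table holds raw counts of reads for each gene, the unit used here. Per the submitters' processing notes, the tools were HTSeq 0.6.1p1, TopHat2 2.1.0, Bowtie2 2.2.6.0, edgeR and SAMtools 1.3, on build mm10 (GRCm38). The sources used here do not give the role of each, the annotation release, the strand setting or the treatment of reads with several matches. Without a known strand setting, reads of genes that overlap on opposite strands cannot be told apart.

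Of the 15805 identifiers, 15665 matched the reference names. Counts were scaled by TMM, filtered with filterByExpr and tested with edgeR 4.0.16's quasi-likelihood test (R 4.3.3, robust, a single group term). P-values were adjusted by Benjamini-Hochberg over all 15675 genes tested, with a threshold of 0.05. Log2 CPM used a prior count of 2. DESeq2 1.42.0, limma voom (limma 3.58.1), other scalings, no filter, a replicate block and left-out libraries were alternatives, and the script was tested on simulated data. Depth, 20176386 to 89620195 counts per library, sets the counting error of each value.

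Copies were counted in the GENCODE M21 transcripts, on the sense strand, from the shortest principal transcript of each member. Levels per kb use the length of that transcript. TOP runs were searched on the sense strand of RefSeq promoters.

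The genes named by rule were those of known role, the 4 of lowest p in each direction, the 3 most and least abundant, and the 3 of largest and smallest spread at or above 10 CPM. Values of some genes that these rules cover are not reported here, though they stay in all fits and counts. Members and lists were chosen with earlier results of these data known. Replicate numbers were not taken to pair explants across groups, since the labels state no pairing. Every same-numbered pair correlated above 0 over all genes (0.004 to 0.279), so whether the numbers pair explants is not settled. A fit with the number as a block is given below. No library was a repeat: even controls 7 and 8, the most alike, had a chi-square of 48.5 for each degree of freedom.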

Additional observations from a re-analysis of the deposited data

Results flagged for a closer look

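Each gene named in the text by the rule, and the summed share, was checked for a library far from the other 7 of its group, by the gap to its nearest neighbour over the range of the group, against Dixon's critical value. Of 68 groups checked, 12 had such a library. Chance gives about 1 in 20 only for normally spread values of genes chosen blind, so this count is not a test. The values here were CPM without logs, and Rpl24, Rps19 and Rpl30 were among those named for a large spread. Blebbistatin 7 and control 2 were known beforehand to stand apart. The share of counts in the 78 ribosomal protein genes stood apart in blebbistatin 7 (1.14%) and control 2 (1.20%). All other cases were high values in blebbistatin 1 or control 1. In blebbistatin 1 they were Rpl24 (22.0 CPM), Rplp1 (71.9 CPM), Rps19 (85.8 CPM), Rps27a (175 CPM), Rps4l (9.68 CPM), Rps6 (55.2 CPM) and Rpsa (94.9 CPM). In control 1 they were Rpl24 (23.7 CPM), Rps19 (140 CPM) and Rpsa (128 CPM). Since Rpl24, Rps19 and Rpsa appear in both libraries, the cases are not independent of each other.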

How the results depend on the processing

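In 27 alternatives, each run against the comparison of all 16 explants, and 2 more for the list alone, the number of members called higher was 0 and the number called lower was 0 to 1. It was 1 with DESeq2 (Rps24) and 1 without blebbistatin 1 (Rps6), so leaving out single explants gave 0 to 1. The median of the members ran from −0.147 to −0.063, below the median of all genes in each setting by 0.09 to 0.17. Genes called over the whole table numbered 407 with DESeq2, 177 with a replicate block and 28 without blebbistatin 7 and control 2 or without blebbistatin 1 and control 1, against 95. Leaving out single explants gave 44 to 206 such genes: 206 without control 6, 180 without blebbistatin 5, 49 without blebbistatin 6, 62 without blebbistatin 8, and 60, 58, 52, 44 and 54 without controls 1, 2, 4, 7 and 8. The settings without blebbistatin 1 and control 1 and with Rps3a1 added were chosen after seeing the data.

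With the replicate number as a block, 0 members were called and their median was −0.11. At an unadjusted p under 0.05, 17 were lower, and the share of all genes at that p in this fit is not given here. The biogenesis genes called lower became 2 (Eif6 and Gnl2), against 4 with DESeq2. Same-numbered explants correlated at 0.004 to 0.279 over all genes, so every such pair was above 0. Blebbistatin 1 and control 1 were each other's best match, but not every explant correlated best with its own number.

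Changes near 0 turned sign. Without blebbistatin 7 and control 2, Rpl11 was at −0.0328 and Rpl39 at 0.0037. Without blebbistatin 1 and control 1, Rplp1 was at −0.0169, Rplp2 at 0.073 and Rps3 at 0.0139. Rplp2 was at 0.0096 with library totals only, 0.0219 with limma voom, 0.0068 with the block and 0.0123 with upper quartile scaling, which put Myc at 0.0077. Leaving out single explants gave −0.0381 to 0.0641 for Rpl11, −0.0479 to 0.2434 for Rpl30, −0.0916 to 0.0597 for Rpl39, −0.2247 to 0.0011 for Rpl5, −0.1467 to 0.1948 for Rplp1, −0.0546 to 0.0781 for Rplp2, −0.1036 to 0.1366 for Rps14, −0.0813 to 0.0444 for Rps3, −0.0912 to 0.0559 for Myc and −0.0922 to 0.0395 for Rpl36al. The cause of these turns was not tested. Rps4l, the least abundant member, had 2296 raw counts over the 16 libraries and a within-group SD of 0.88 (log2 CPM). The part of depth in this spread was not tested.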
